A study of Mus musculus with 10 samples.

Results

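The genes described here are those of glutamate uptake and of the glutamine cycle: the transporter genes Slc1a1, Slc1a2, Slc1a3, Slc1a4 and Slc1a6, and the enzyme genes Glul, Glud1, Got1 and Got2. They were chosen by name from what their proteins do, with earlier results of these data known. All 9 are among the 18464 genes of the deposited table. RNA-seq of polyA RNA was done on 10 libraries from ventral midbrain (SNpc/VTA, the region of the dopamine neurons). The mice were of the Aldh1l1-NuTRAP strain and are called naive. In this strain cells that use the Aldh1l1 promoter, in brain mostly astrocytes, carry tagged ribosomes. A group of 5 libraries holds input RNA, labelled as CNS cell types, and a group of 5, titled posfxn and labelled as astrocytes, is called the astrocyte fraction here. The protocol names a TRAP buffer, and TRAP is the pull-down of RNA on tagged ribosomes. Each title carries 1 of the numbers 88, 92, 976, 981 and 982, which is shared by an input library and a fraction library. The labels used here do not say whether a number is 1 animal or a pool, nor give age, so the p-values cover only the spread among these libraries. The series title names GLAST, the protein of Slc1a3, after cocaine or methamphetamine, and no drug-treated sample is used here.

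Glutamate released at synapses is cleared mainly by sodium-coupled transporters of the SLC1 family. GLAST (Slc1a3) and GLT-1 (Slc1a2) are the main astrocyte forms, while EAAC1 (Slc1a1) and EAAT4 (Slc1a6) are known as neuronal forms, the latter mainly from Purkinje cells. Inside astrocytes glutamine synthetase (Glul) turns glutamate into glutamine, which passes back to neurons and is turned into glutamate again. Glutamate can also enter the citric acid cycle through glutamate dehydrogenase (Glud1) or through the aspartate aminotransferases of the cytosol (Got1) and of mitochondria (Got2).

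Library totals ran from 21812193 to 30878894 expected counts in the input and from 24479136 to 26924406 in 4 fraction libraries, while the fraction library 92 held 3845554. The labelled cell type was compared with marker genes other than the 9 members. These lists too were chosen with earlier results of these data known. All 9 astrocyte markers rose in the fraction, and all 8 neuron markers, 6 oligodendrocyte markers and 5 microglia markers fell (edgeR). The oligodendrocyte markers kept 6.11% to 65.0% of their input level, with Cnp highest and overlapping between the groups. The microglia markers kept 3.91% to 9.49%. Of 4 endothelial markers Flt1 and Esam fell, Cldn5 and Pecam1 were not called, and the 4 kept 61.1% to 86.9% of their input level. Neuron markers were not absent: their summed level was 5384 to 6275 CPM (counts relative to the effective library size) in the input and 1058 to 1404 CPM in the fraction, and 0 of the 8 were at 0 in any library. Libraries of the numbers 976 and 982 stood apart by transcripts of the choroid plexus. Ttr, its transthyretin gene, was at 2965 and 604 CPM in their inputs and 11036 and 2312 CPM in their fractions, against 0.334 to 11.6 CPM elsewhere.

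Windows of 150 bases directly before the transcription start are shown for 3 members that moved in different ways, Slc1a3 and Glud1 (higher in the fraction) and Got1 (lower). They were taken from the 5 members whose window holds no annotated exon base, which also include Slc1a4 and Slc1a6. The sequences are RefSeq's on GRCm38.p6, each read 5′ to 3′ on the strand of its gene, at chr15:8710808-8710957 (minus strand), chr14:34310577-34310726 (plus strand) and chr19:43524606-43524755 (minus strand). Capitals mark the GC box, GGGCGG on either strand.
Slc1a3: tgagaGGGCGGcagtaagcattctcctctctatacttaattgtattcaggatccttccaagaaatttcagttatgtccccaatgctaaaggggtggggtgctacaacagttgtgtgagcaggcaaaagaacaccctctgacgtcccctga
Glud1: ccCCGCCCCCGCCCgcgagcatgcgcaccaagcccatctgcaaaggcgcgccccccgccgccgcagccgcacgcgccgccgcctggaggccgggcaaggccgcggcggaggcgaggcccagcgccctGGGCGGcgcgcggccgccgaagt
Got1: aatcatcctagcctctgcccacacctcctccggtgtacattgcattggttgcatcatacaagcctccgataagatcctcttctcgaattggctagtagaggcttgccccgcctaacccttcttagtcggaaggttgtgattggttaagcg
The 3 windows differ in base composition. In the 250 bases before the start, CpG occurred 2 times for Slc1a3, 46 times for Glud1 and 11 times for Got1, against a median of 6 over 32851 promoters of the same length. A GC box was present 1 time for Slc1a3 and 3 times for Glud1, its letters were not found for Got1, and 32.7% of all promoters held 1 or more. Slc1a3 and Glud1, both higher in the fraction, lay at opposite ends of the 3 in CpG count. Among the members not shown, those higher in the fraction had 0 (Slc1a2), 3 (Slc1a4) and 1 (Glul) GC boxes in their 250 bases. Those lower in the fraction had 1 (Slc1a1), 6 (Slc1a6) and 0 (Got2). Members with and without the box thus occurred in both directions, and a link with the change was not tested.

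The 9 genes fell into 2 sets. Slc1a3, Slc1a2, Slc1a4, Glul and Glud1 were higher in the astrocyte fraction, and Slc1a1, Slc1a6, Got1 and Got2 were lower. All 9 passed the filter on low counts and were called at an adjusted p under 0.05 (edgeR, 5 higher and 4 lower), and for all 9 the values of both groups did not overlap. The background was high: of 17672 tested genes 70.6% were called, 33.1% higher and 37.5% lower, and 58.2% had groups without overlap (27.2% higher and 31.1% lower), so a call alone says little about these genes. Their log2 fold changes had a median of 1.79 and ran from -2.63 to 3.06, beside a median of -0.06 over all genes tested. In these bulk samples the recovery of a transcript in the pull-down, the number of cells of a type and the RNA per cell cannot be told apart. Scaling to total counts changed the share of higher genes among the called from 46.9% to 34.0% and moved the median of all genes to -0.34. The 9 calls and directions were the same under that scaling.

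**Figure D1:**
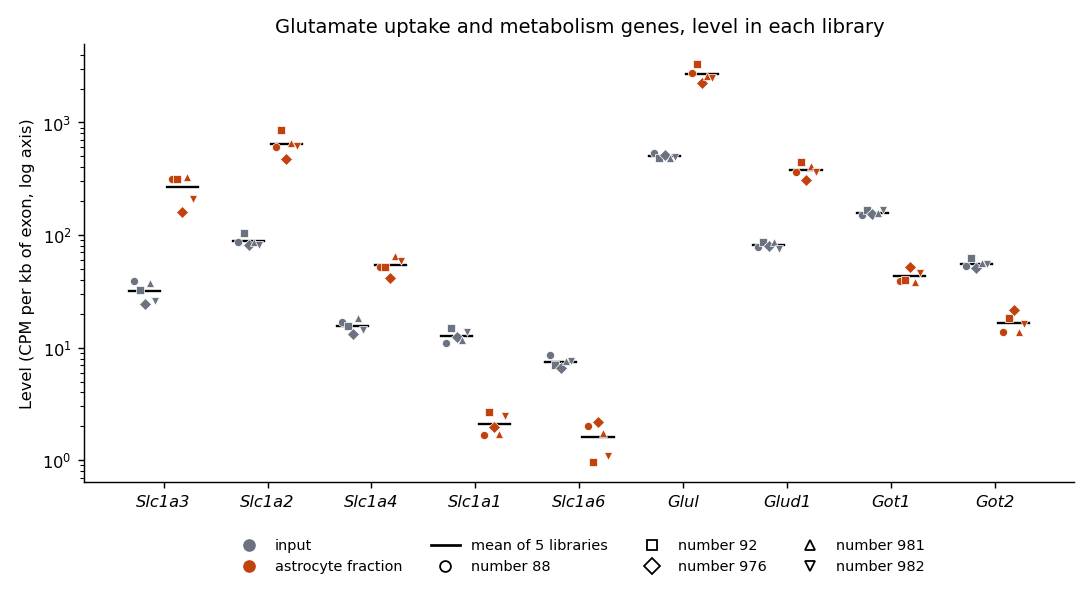
Level of each gene in each library in CPM per kilobase of exon on a log axis, with input in grey, astrocyte fraction in orange, marker shape for the title number and a black line for the mean of 5 libraries. For every gene the points of both groups are apart, and the 2 sets go in opposite directions.

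Slc1a3 (ENSMUSG00000005360, mm10 chromosome 15, 8634124 to 8710764, minus strand) encodes GLAST. It was at 337, 276, 208, 319 and 220.4 CPM in the inputs of the numbers 88, 92, 976, 981 and 982. The fractions of the same numbers had 2703, 2679, 1379, 2795 and 1779.8 CPM. The lowest fraction library, 976, lay far above the highest input, and the numbers 976 and 982 were the low ones in both groups. The log2 fold change was 3.06 ± 0.25 (SE; edgeR adjusted p = 1.72e-07), and within numbers the ratio of fraction to input ran from 6.63 to 9.71. By counts Slc1a3 ranked from 21 to 64 among all genes of a fraction library and from 361 to 787 in the input. Per kilobase of exon it ranked lower, from 102 to 236 in the fraction and from 1097 to 1975 in the input.

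Slc1a2 (chromosome 2, 102658659 to 102790784) encodes GLT-1, the other main astrocyte transporter. Its inputs, in the same order of numbers, were at 1138, 1372, 1078, 1141 and 1075 CPM. Its fractions were at 7982, 11304, 6198, 8629 and 8177 CPM. Number 92 was the highest and number 976 the lowest in the fraction, and the groups were far apart. Slc1a2 rose by 2.86 ± 0.15 on the log2 scale (SE; edgeR adjusted p = 2.11e-09). By counts it ranked from 6 to 11 among all genes of a fraction library and from 41 to 57 in the input. Counts favour long transcripts: per kilobase of exon Slc1a2 ranked from 26 to 49 in the fraction and from 282 to 455 in the input.

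Slc1a4 (chromosome 11, 20302180 to 20332713, minus strand) belongs to the same family but encodes ASCT1, an exchanger of neutral amino acids such as serine and alanine. Its input levels spanned 51.6 to 71.6 CPM and its fraction levels 164 to 256 CPM, and in each group 976 was lowest and 981 highest. The rise of 1.79 ± 0.14 (log2, SE; edgeR adjusted p = 3.62e-08) was smaller than those of Slc1a2 and Slc1a3. The difference between these rises was not tested.

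Both transporters known from neurons fell. Slc1a1 (chromosome 19, 28835049 to 28913960) had input levels of 90.2, 124, 102, 96.3 and 113 CPM. Its fraction levels were 14.0, 21.9, 16.2, 14.2 and 20.4 CPM. The order of the 5 numbers was the same in both groups, with 92 highest and 88 lowest. The log2 fold change was -2.63 ± 0.16 (SE; edgeR adjusted p = 3.32e-09), which left 16.2% of the input level. Of its exon bases 31.9% overlap 4430402I18Rik, a gene on the opposite strand, and the strand setting of the counting is not given in the sources used here. That gene had 2.92 ± 0.867 CPM among inputs and 5.40 ± 0.862 CPM among fractions (SD, n = 5), so the Slc1a1 level in the fraction is uncertain by an amount these values cannot fix.

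Slc1a6 (chromosome 10, 78780496 to 78814765) was the scarcest of the 9 genes. Its input levels were 18.5, 15, 14.2, 16.2 and 16.5 CPM, and its fraction levels 4.35, 2.05, 4.69, 3.79 and 2.34 CPM. The highest fraction value was below the lowest input value. The fraction library 92 held only 7 counts, a level of 2.05 CPM with an exact Poisson interval of 0.826 to 4.23 CPM (95%, counting error only). Its log2 fold change was -2.13 ± 0.24 (SE; edgeR adjusted p = 7.85e-07). Of the 3 Purkinje cell markers chosen, Pcp2 was not among the genes of the deposited table. Calb1, a calcium-binding protein gene that other neurons also use, fell by 2.73 on the log2 scale. Car8 had a value of -0.28 and was not called (edgeR adjusted p = 0.281).

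What remained of Slc1a1 and Slc1a6 in the fraction was close in size to what remained of neuron markers. The 8 neuron markers kept 16.9% to 22.1% of their input level, beside 16.2% for Slc1a1 and 22.8% for Slc1a6. The part of remaining neuronal RNA in these fraction values was not tested.

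Per kilobase of exon, Slc1a2 made up most of the high-affinity transporter transcripts in both groups. Of the summed level of Slc1a1, Slc1a2, Slc1a3 and Slc1a6 per exon length, Slc1a2 took 62.9 ± 2.84% in the input and 70.7 ± 4.37% in the fraction (SD, n = 5). Slc1a3 took 22.6 ± 3.67% and 28.8 ± 4.42%. Slc1a1 went from 9.12 ± 1.28% to 0.237 ± 0.0623%, and Slc1a6 from 5.35 ± 0.632% to 0.190 ± 0.0992%. The input thus held a clear minority of the 2 neuronal forms, which made up under 1% of the fraction. The ranges overlapped between the groups for Slc1a2, at 59.5 to 65.8% and 65.5 to 74.6%, and for Slc1a3, at 19.4 to 27.1% and 25.0 to 34.1%.

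**Figure D2:**
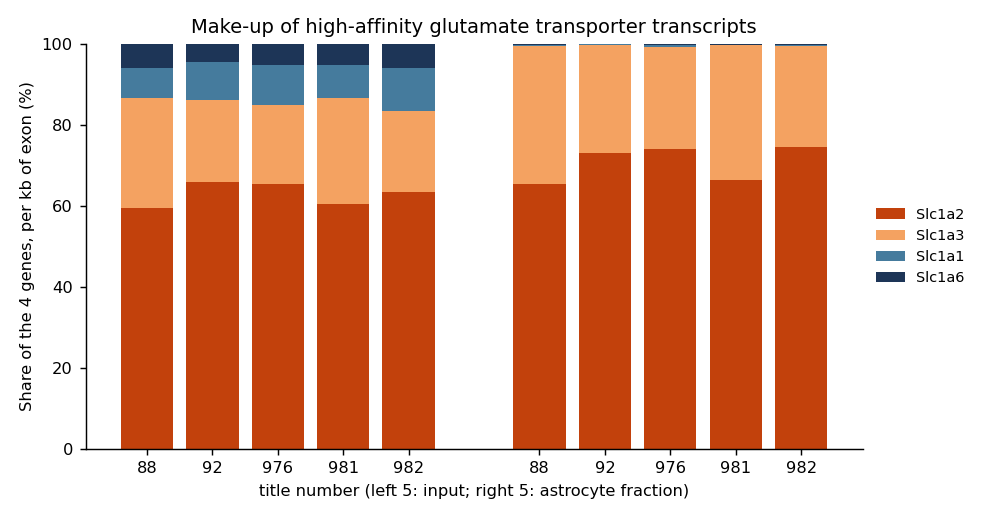
Share of each of the 4 high-affinity glutamate transporter genes in their summed level per kilobase of exon, 1 bar per library, input on the left and astrocyte fraction on the right. Slc1a2 and Slc1a3 fill almost the whole bar in the fraction, while Slc1a1 and Slc1a6 together are visible in every input library.

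The balance of the 2 astrocyte transporters was compared as a ratio within each library, which does not depend on how libraries are scaled. The ratio of Slc1a3 to Slc1a2 counts was 0.193 to 0.296 in the input and 0.218 to 0.339 in the fraction. It was higher in the fraction in 5 of 5 numbers, by 0.09 to 0.24 on the log2 scale, yet the groups overlapped widely. The difference was 0.19 ± 0.19 (log2, SE), where the SE treats the libraries as unpaired and so holds the spread between numbers. The exact permutation test over samples, unpaired as well, did not pass (two-sided p = 0.373, adjusted p = 0.426 over 8 ratios). The exact sign-flip test over the 5 numbers gave p = 0.0625, its smallest possible value, and so could not pass. Neither test therefore decides on the small shift that all 5 numbers shared. The ratio split by number, with 88 and 981 highest in both groups.

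Glul (chromosome 1, 153899944 to 153909723) encodes glutamine synthetase, which consumes the glutamate that is taken up. Its input levels were 1774, 1603, 1695, 1609 and 1637 CPM. Its fraction levels were 9227, 11006, 7412, 8646 and 8242 CPM. The input libraries lay within a narrow band, and the fraction values spread more widely, from 976 at the low end to 92 at the high end. The log2 fold change was 2.42 ± 0.10 (SE; edgeR adjusted p = 5.26e-10). Per kilobase of exon Glul had the highest level of the 9 genes in both groups, at 501 ± 21.5 CPM per kb in the input and 2680.3 ± 405 CPM per kb in the fraction (SD, n = 5). By counts it ranked from 6 to 8 among all genes in the fraction libraries and from 20 to 33 in the inputs. Per kilobase of exon these ranks were 5 to 7 and 22 to 35. Within numbers the fraction exceeded the input by 4.37-fold to 6.87-fold, with 976 lowest and 92 highest.

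Glud1 (chromosome 14, 34310727 to 34345265) encodes the mitochondrial enzyme that turns glutamate into 2-oxoglutarate. Input levels lay between 317 and 362 CPM, and the fractions had 1527, 1865, 1301, 1725 and 1531 CPM. All fraction libraries were well above all inputs, with 976 again lowest and 92 highest. Glud1 rose by 2.22 ± 0.10 (log2, SE; edgeR adjusted p = 6.71e-10). The processed pseudogene Glud-ps, a near copy, was counted at 1.3% of the Glud1 level in the input and 1.23% in the fraction. How reads that match both copies were counted is not given, and their effect on Glud1 was not tested.

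Both aspartate aminotransferase genes moved against Glud1. Got1, the cytosolic enzyme (chromosome 19, 43499752 to 43524605, minus strand), had input levels of 383, 420.2, 388, 395 and 423 CPM and fraction levels of 98.6, 101, 132, 97.6 and 117 CPM. Got2, the mitochondrial enzyme (chromosome 8, 95864134 to 95888547, minus strand), had input levels of 255, 299, 247, 272 and 266 CPM and fraction levels of 65.7, 88.3, 103, 66.1 and 78.2 CPM. For each gene the groups were far apart, and the fraction library 976 had the highest value of its group.

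Got1 fell by 1.88 ± 0.09 and Got2 by 1.74 ± 0.13 on the log2 scale (SE; edgeR adjusted p = 1.35e-09 and 4.32e-08). They kept 27.2% and 29.9% of their input levels, above the 16.9% to 22.1% that the neuron markers kept. The test did not tell the falls of the 2 genes apart: the ratio of Got2 to Got1 differed by 0.13 ± 0.08 (log2, SE), with a higher ratio in the fraction in 3 of 5 numbers (two-sided exact permutation p = 0.198, adjusted p = 0.317 over 8 ratios). Got2-ps1, a processed pseudogene, was counted at 3.18% of Got2 in the input and 2.77% in the fraction. Of the Got2 exon bases 9% overlap a gene model on the opposite strand.

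The order of levels per kilobase of exon changed between the groups. In the input it ran Glul, Got1, Slc1a2, Glud1, Got2, Slc1a3, Slc1a4, Slc1a1 and Slc1a6, where the neighbours Slc1a2 and Glud1, and Slc1a4 and Slc1a1, overlapped. In the fraction it ran Glul, Slc1a2, Glud1, Slc1a3, Slc1a4, Got1, Got2, Slc1a1 and Slc1a6, where Glud1 and Slc1a3, Slc1a4 and Got1, and Slc1a1 and Slc1a6 overlapped. Got1 had been second with 158 ± 7.31 CPM per kb in the input and was sixth with 43.0 ± 5.80 CPM per kb in the fraction (SD, n = 5). Slc1a3 went from 31.9 ± 6.73 to 266 ± 75.5 CPM per kb.

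Together the 9 genes took 0.474 ± 0.0161% of all counts in the input and 1.95 ± 0.307% in the fraction (SD, n = 5). Slc1a2 and Glul alone made up 0.312 ± 0.0112% and 1.57 ± 0.254%. Measured as a share of the level per exon length, the 9 genes took 0.358% and 1.34%. The fraction range of 1.57 to 2.42% of counts lay above the input range of 0.458 to 0.496%.

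Enrichment of the members was also set against Aldh1l1, the folate enzyme gene whose promoter use marks the cells with tagged ribosomes. Of the Aldh1l1 exon bases 11% overlap a gene model on the opposite strand and 2.33% are shared with one on the same strand. In the fraction Aldh1l1 was at 673 to 899 CPM, and it rose by 3.03 ± 0.09 on the log2 scale (SE; edgeR adjusted p = 7.08e-11). The ratio of Slc1a3 to Aldh1l1 differed by 0.01 ± 0.20 (log2, SE) and did not pass the two-sided exact permutation test (p = 0.968, adjusted p = 0.968). It was higher in 2 of 5 numbers, and the differences within numbers ran from -0.20 to 0.31. The ratio of Slc1a2 to Aldh1l1 differed by -0.18 ± 0.15 and was lower in 4 of 5 numbers (two-sided exact permutation p = 0.238, adjusted p = 0.317). That value rests on the fraction library 92: without it the difference was -0.31 and passed the exact permutation test (adjusted p = 0.0254). Number 92 also had the highest ratio of the inputs, at 13.9, and that input stayed in the comparison. Leaving out both libraries of 92 was not tested for this ratio.

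Glul and Glud1 rose less than Aldh1l1. The ratio of Glul to Aldh1l1 counts was 15.4 to 19.2 in the input and 9.17 to 14.2 in the fraction, a difference of -0.62 ± 0.12 (log2, SE). The ratio of Glud1 to Aldh1l1 was 3.04 to 3.78 in the input and 1.70 to 2.41 in the fraction, a difference of -0.81 ± 0.11 (log2, SE). Neither pair of ranges overlapped, and both ratios were lower in 5 of 5 numbers. Both had a two-sided exact permutation p of 0.00794, the smallest that 5 against 5 samples allow (adjusted p = 0.0159 over 8 ratios). With the numbers as pairs the exact sign-flip test gave 0.0625, its smallest possible value (adjusted p = 0.1).

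The ratio of the neuronal to the astrocyte transporter gene, Slc1a1 to Slc1a3, was 0.268 to 0.515 in the input and 0.00508 to 0.0117 in the fraction. The ranges were far apart, and the ratio was lower in 5 of 5 numbers. It was 50.2-fold lower in the fraction, a difference of -5.65 ± 0.33 (log2, SE; two-sided exact permutation p = 0.00794, adjusted p = 0.0159). Here too the exact sign-flip test over the 5 numbers gave its smallest possible p of 0.0625 (adjusted p = 0.1).

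**Figure D3:**
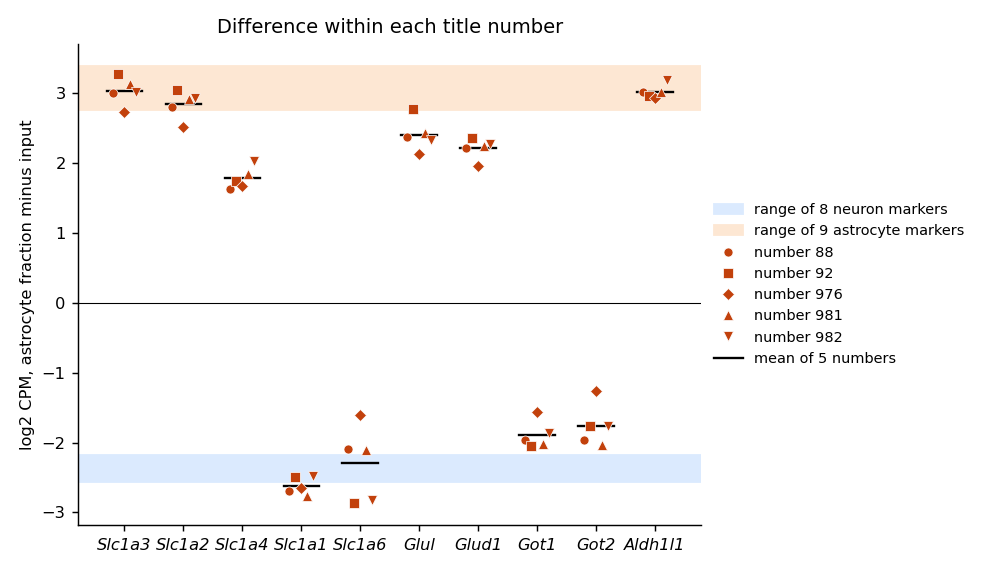
Difference in log2 CPM between the fraction and input library of the same title number for the 9 genes and Aldh1l1, with the mean of 5 numbers as a black line and the ranges of the marker genes' log2 fold changes as shaded bands. Slc1a3, at 2.73 to 3.28, lies almost wholly within the astrocyte band, Glul and Glud1 lie mostly below it, and Got1 and Got2 lie above the neuron band.

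Libraries of a group differed more in Slc1a3 than in Slc1a2 or Glul. The SD of log2 CPM over 5 libraries was 0.31 in the input and 0.46 in the fraction for Slc1a3, 0.14 and 0.31 for Slc1a2, and 0.06 and 0.21 for Glul. Aqp4, the astrocyte water channel gene, had 0.37 and 0.45. Slc1a3 lay on the same side of its group mean in both libraries for 5 of 5 numbers, as did Slc1a1, Glud1 and Aqp4. Slc1a2 and Aldh1l1 did so for 4 of 5 numbers, and Slc1a4, Slc1a6, Glul, Got1 and Got2 for 3 of 5. For Slc1a3 the numbers 976 and 982 were below the mean, and the other 3 above it. Slc1a2, Glud1 and the astrocyte marker Slc4a4 were also below their means at 976 and 982 in both groups. Slc1a2 and Glud1 were below at 88 too. Fraction 976 was the lowest of its group for Slc1a2, Slc1a3, Slc1a4, Glul, Glud1 and Aldh1l1, and the highest for Slc1a6, Got1 and Got2. The numbers 976 and 982 are those with choroid plexus transcripts. The 3 choroid plexus markers of the table summed to 7.81 (lowest), 15 (median) and 3195 CPM (highest) in the input. In the fraction the same sums were 57.2, 81.1 and 12240 CPM. The part of that tissue in the spread of Slc1a3 or of the other genes was not tested. Without both numbers the log2 fold change of Slc1a3 was 3.24, that of Slc1a2 3.05 and that of Glul 2.64.

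**Figure D4:**
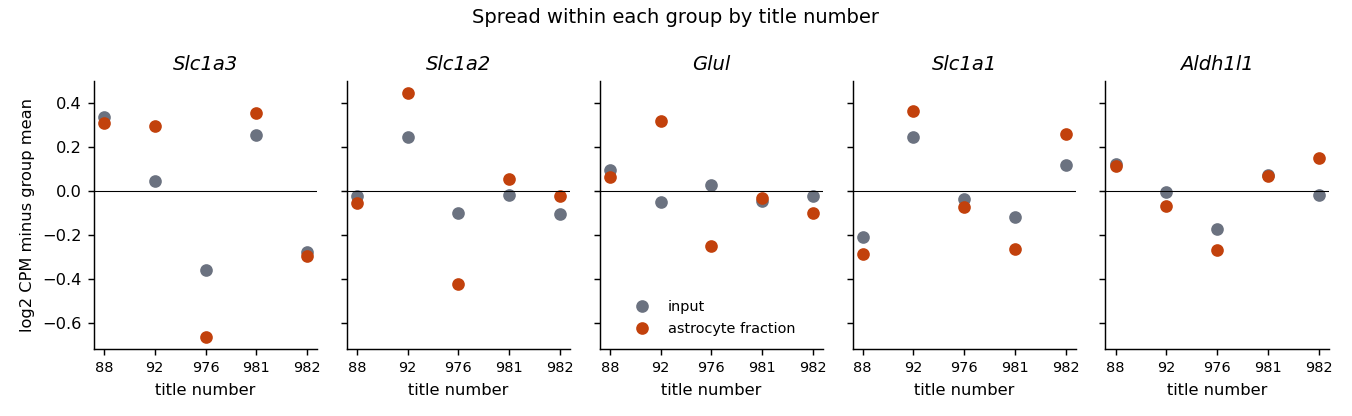
Log2 CPM of 4 members and Aldh1l1 in each library minus the mean of its group, input in grey and fraction in orange, by title number. For Slc1a3 and Slc1a1 both libraries of a number lie on the same side of 0, whereas the input libraries of Glul stay close to 0.

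The genes with the pattern most like a member were taken as those with the smallest root mean square difference in log2 CPM over the 10 libraries, after each gene was centred on its own mean, among 8524 named genes in the upper 50% by level. For Slc1a3 these were Prex2 (0.08), Cyp2j9 (0.11), Slc4a4 (0.14) and Gjb2 (0.14), where the median over all candidates was 1.53. Slc4a4 encodes a sodium bicarbonate cotransporter of astrocytes, and Gjb2 a connexin. For Slc1a2 they were Fam107a (0.09), Paqr8 (0.09) and Chpt1 (0.12), beside a median of 1.41. For Glul they were Cst3 (0.08), Fgf1 (0.09), Gng12 (0.09) and Cdh20 (0.10), and Cst3 encodes the protease inhibitor cystatin C. The lists do not share a gene.

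Of 32 partner genes, all in the table and tested, 15 were higher, 14 lower and 3 not called (edgeR), with a median log2 fold change of -0.11 beside -0.06 over all genes tested. Of all genes tested 33.1% were higher and 37.5% lower. Total count scaling gave 13 higher and 17 lower partner genes.

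Of 5 glutamine transporters, 1 was higher and 3 were lower. Slc38a3, the main astrocyte exporter of glutamine, had 61.9 ± 10.2 CPM among inputs and 436 ± 54 CPM among fractions (SD, n = 5) and rose by 2.81 on the log2 scale. Slc38a1 (-0.94) and Slc38a2 (-2.31), known as routes of glutamine uptake in neurons, were lower. Slc38a5 was scarce, at 2.42 and 0.875 CPM, and its call (-1.23, edgeR adjusted p = 0.0308) was lost without any of the inputs 88, 976, 981 and 982 or the fractions 976 and 982, at adjusted p from 0.0524 to 0.0595, and was -0.66 (adjusted p = 0.273) without both numbers 976 and 982. Slc1a5, the remaining SLC1 gene of the lists, was at 2.40 and 1.21 CPM and not called (-0.80, edgeR adjusted p = 0.117). It was called lower without the fraction library 976 (-1.16, edgeR adjusted p = 0.0183) and with total count scaling (-1.05, edgeR adjusted p = 0.0476).

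Of 4 genes that feed transmitter glutamate in neurons, 3 were lower. Gls2, a glutaminase gene, fell by 2.46 on the log2 scale. Of 3 vesicular transporters, which load glutamate into synaptic vesicles, Slc17a6 (-2.44) and Slc17a8 (-2.54) fell. Slc17a7 had a value of -2.12 and was not called (edgeR adjusted p = 0.0534), but a fit that blocks on the numbers called it (-2.40, edgeR adjusted p = 1.93e-05), as did total count scaling (0.0356) and DESeq2 (0.0117). Leaving out the input 88 or 981 or the fraction 982 gave the call too (edgeR adjusted p = 0.0472, 0.0471 and 0.0415). Its input spread was wide, at 225 ± 158 CPM (SD, n = 5). These genes kept 17.2% to 23.1% of their input level, in the range of the neuron markers or next to it.

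Both subunit genes of the cystine-glutamate exchanger, which releases glutamate for cystine, rose. Slc7a11, the transport subunit, had a log2 fold change of 2.64 ± 0.23 and Slc3a2, its heavy chain, of 1.71 ± 0.10 (SE).

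Mitochondrial carriers of glutamate and aspartate parted. Slc25a18, a glutamate carrier, had 88.9 ± 4.85 CPM among inputs and 876 ± 95.5 CPM among fractions (SD, n = 5). Its rise of 3.30 on the log2 scale was above the value of each of the 9 members, a difference that was not tested. The other glutamate carrier, Slc25a22, fell by 1.65, and the aspartate-glutamate carrier Slc25a12 by 1.24 on the log2 scale. Slc25a13 was scarce (-1.25, edgeR adjusted p = 0.0495), and its call was lost without any 1 of 8 libraries, all inputs and the fractions 88, 981 and 982, at adjusted p from 0.0700 to 0.110. Without the fraction 976 it was -1.95 (edgeR adjusted p = 0.000339). Beside the carriers Slc25a12 and Slc25a13, 3 more genes of the shuttle that works with Got1 and Got2 were listed, and these changed little. Mdh1 had a log2 fold change of -0.29, Mdh2 of 0.29 and Slc25a11 of 0.16, and the Mdh2 and Slc25a11 calls were lost with total count scaling, at 0.01 and -0.13. The Slc25a11 call was also lost without the input 88, 92 or 976 or the fraction 982, at edgeR adjusted p from 0.0508 to 0.0734.

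Of 12 other enzymes of glutamate and linked metabolism, 8 were higher and 4 lower. The alanine aminotransferases Gpt (1.32) and Gpt2 (1.98), the ornithine aminotransferase Oat (1.93) and the GABA transaminase Abat (2.09) rose, unlike Got1 and Got2. Aldh4a1, which ends proline breakdown in glutamate, rose by 2.56, but 32.5% of its exon bases are shared with another gene model on the same strand. Bcat2 (0.84), Psat1 (1.32) and pyruvate carboxylase Pcx (1.32) were higher too. Pcx is an astrocyte enzyme that refills the citric acid cycle and does not itself make or use glutamate. The lower genes were Bcat1, a cytosolic aminotransferase of branched-chain amino acids (-2.56), Aldh18a1 (-1.38) and the GABA-making enzymes Gad1 (-2.48) and Gad2 (-2.34). Of the 2 transporter-binding protein genes, Slc9a3r1, a PDZ scaffold, rose by 2.55, and Arl6ip5, which binds EAAC1, had a value of 0.06 and was not called (edgeR adjusted p = 0.430), though with total count scaling it was -0.22 (edgeR adjusted p = 0.0228).

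**Figure D5:**
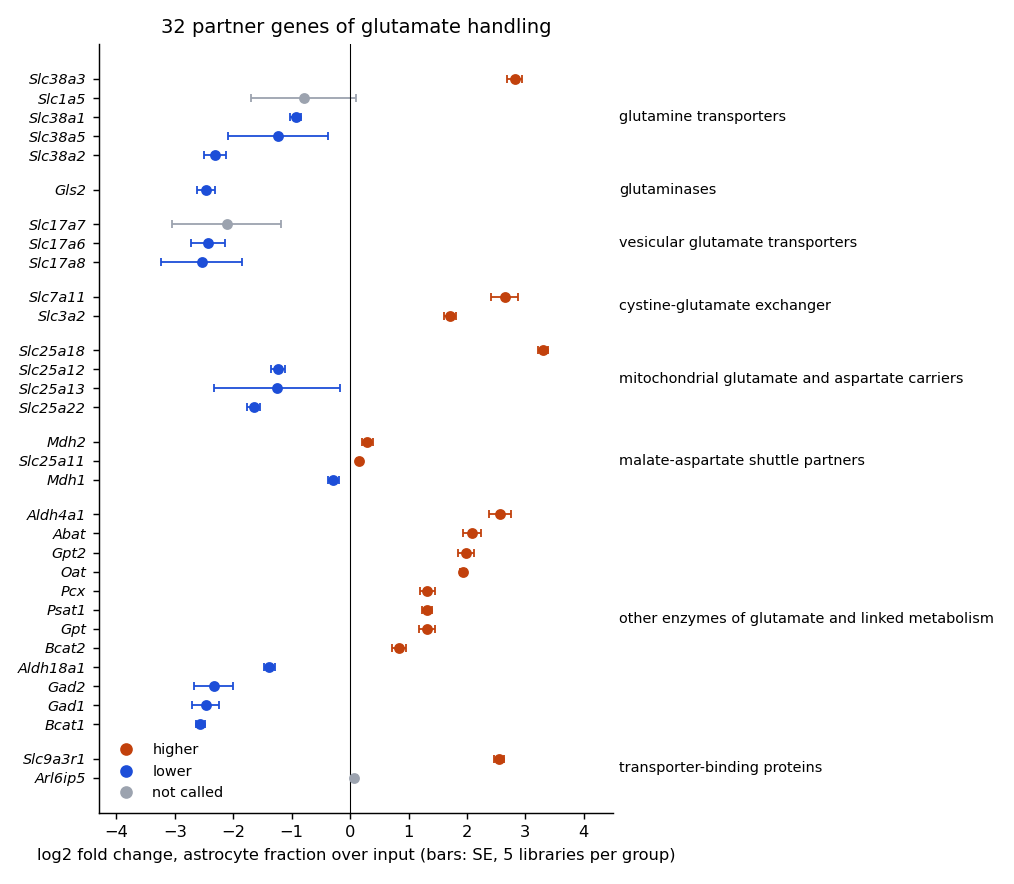
Log2 fold change of 32 partner genes by role, astrocyte fraction over input, with SE bars from 5 libraries per group and colour for the call (orange higher, blue lower, grey not called). Slc25a18 at 3.30 and Slc38a3 at 2.81 lie at the right. Bcat1 at -2.56 lies furthest left, near Gls2, Gad1, Gad2, Slc38a2 and the vesicular transporter genes.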

How the data were processed

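The authors deposited 1 table of genes by 10 libraries. It holds the estimated counts that the authors made per gene, unscaled, and log2 values that the authors normalized between libraries. CASAVA 1.8, DESeq and mm10 are listed in the submitters' processing notes, without roles. Strandedness, counting tool and aligner were not given in the sources used here. All 18464 genes reach 5 counts in every library of at least 1 group, and scarcer genes are not analysed here.

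Expected counts were rounded and fitted with edgeR 4.0.16 (R 4.3.3, TMM, filterByExpr with a minimum count of 10, robust quasi-likelihood test, prior count 2) over all 17672 genes kept, with Benjamini-Hochberg adjustment at 0.05. The test was checked on simulated data in which few genes changed. Here 70.6% were called, so that check does not cover the scaling between the groups. SEs come from log2 CPM of 5 libraries per group. Levels per kilobase divide CPM by the exon union of GENCODE M21 (GRCm38), which ignores isoform use. Ratios were tested by exact permutation over samples. A depth of 3845554 counts in the fraction library 92 puts its 3-count limit at 0.880 CPM, against 0.0912 to 0.136 CPM elsewhere.

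Deviations of same-numbered libraries from their group means had correlations of 0.189 to 0.493 (mean -0.079 between different numbers), so the numbers were treated as pairs in an alternative fit. Other alternatives were DESeq2 1.42.0, limma 3.58.1 on the authors' log2 values, other scalings and filters, and libraries left out. Members and lists were chosen with earlier results of these data known. Named genes are the 9 members, Aldh1l1, the partner lists, the markers and the 4 genes nearest to each of Slc1a3, Slc1a2 and Glul. Of these, 1 partner gene, with the ratio that uses it (1 of the 8 adjusted together), and 1 nearest gene are not reported here.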

Additional observations from a re-analysis of the deposited data

Results flagged for a closer look

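Of 36 sets of 5 libraries checked, 2 had a library set apart from the other 4 by more than 0.71 of the range (Dixon's 95% critical value), where chance gives about 1 in 20. Slc1a2 in the input library 92 was at 1372 CPM, against 1075 to 1141 CPM in the other inputs. The log2 ratio of Slc1a2 to Aldh1l1 in the fraction library 92, the shallowest library, was 3.87, against 3.19 to 3.34 in the other fractions.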

How the results depend on the processing

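Each of the 9 members kept its direction and its call in 22 of 22 alternatives, with log2 fold changes of 2.76 to 3.26 for Slc1a3, 2.58 to 3.05 for Slc1a2, 2.13 to 2.64 for Glul and -2.91 to -2.54 for Slc1a1. The replicate block, with the title number as a term, gave 5885 genes higher and 6843 lower, against 5858 and 6625 without it, left 5 members higher and 4 lower, and changed no call of a partner gene other than Slc17a7. Scaled to total counts, Slc25a11 turned to -0.13 and was not called. In the exact sign-flip test over the 5 pairs, which cannot pass 0.05, Glul to Aldh1l1 (-0.62), Glud1 to Aldh1l1 (-0.81) and Slc1a1 to Slc1a3 (-5.65) had an adjusted p of 0.1. Without the numbers 976 and 982 these were -0.47, -0.73 and -5.79 at adjusted p = 0.2 by the exact permutation test, with 3 samples a group and therefore no possible call. With single libraries left out, Slc1a2 to Aldh1l1 ran from -0.31 to -0.12. The 9 members' share of counts was 0.490% in the input and 2.15% in the fraction without the 10 most abundant other genes, and 0.358% in the input and 1.34% in the fraction per exon length. Depth limits mainly the scarce genes, such as Slc1a6, Slc38a5 and Slc25a13.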
